A study of Homo sapiens with 4 samples.

Results

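Short interspersed elements (SINEs) lay at the centre of 5525 of the 45672 H3K27ac-marked enhancer regions listed in 4 deposited tables of Kasumi-1 cells. A region was taken when its deposited detailed annotation, which describes the region's centre, named a repeat of class SINE. The centre of a region joined from several peaks can lie between them, so a SINE there need not itself be marked. By table these were 556 of 7276 regions in sparse sgSETD8, 398 of 5186 in sparse sgNT, 2471 of 18061 in dense sgSETD8 and 2100 of 15149 in dense sgNT. Of the 5525 regions, 4028 were centred on an Alu, 1460 on a mammalian-wide interspersed repeat (MIR) and 37 on another SINE. The repeat family MIR has no link with the gene prefix MIR of microRNAs.

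The Kasumi-1 line was established from acute myeloid leukaemia and carries t(8;21), which fuses RUNX1 with RUNX1T1. It received Cas9 with a guide against SETD8 (sgSETD8, 2 samples), the histone H4 lysine 20 methyltransferase encoded by KMT5A, or with a non-targeting guide (sgNT, 2 samples), and H3K27ac was profiled by CUT&Tag on 100000 cells per library. Both groups share the cell line and the medium, RPMI with serum and antibiotics, and no label says that the samples of a group were separate cultures. The series design text names H3K27me1, while titles and antibody labels name H3K27ac. The 4 tables form a sparse pair, with few and short regions, and a dense pair, with many and long ones, each with 1 table per guide. The group of the sparse sgNT table rests on the absence of a guide name in its region identifiers. No table could be tied to 1 sample. With 2 tables against 2 an exact two-sided permutation test cannot go below p = 0.333, so no p-values are given. Intervals are exact (Clopper-Pearson) 95% binomial intervals, which cover the counting of regions only. Of 15 genes chosen as markers of t(8;21) myeloblasts, 13 had a region in dense sgSETD8 and 12 in dense sgNT. Of 20 markers of other cell types 8 and 7 did. A SINE lay at the centre of 4 of 77 (5.19%, sgSETD8) and 5 of 86 (5.81%, sgNT) regions of the t(8;21) markers. For the other cell types it was 0 of 12 (interval 0 to 26.5) and 0 of 9 (0 to 33.6). All regions of these tables stood at 13.7% and 13.9%, which both intervals of the other cell types include.

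SINEs are short retrotransposons that do not encode the enzymes for their own copying and depend on those of LINE elements. Alu elements are specific to primates, descend from the 7SL RNA gene, carry an internal RNA polymerase III promoter and are concentrated in gene-rich DNA. Among them AluJ is the oldest subfamily, AluS is intermediate and AluY the youngest, while FLAM and FRAM are older Alu monomers. MIR elements are tRNA-derived, far older and shared by mammals, and some of their copies are known to act as enhancers. H3K27ac marks active enhancers and promoters, and nearby peaks of it are commonly stitched into one enhancer region.

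The letters of the elements themselves were not read here, since they need a genome. Instead, 4 short motifs were searched on both strands of RefSeq promoter windows (GRCh38.p14, 250 bases before to 50 after a start) inside the SINE-centred regions. The windows of 3 of the best-ranked dense sgSETD8 regions that hold such letters, and 1 window close to a MIR element, show what lies in these regions besides the repeat. The windows were chosen after the values were seen. Capitals mark TGTGGT (bound by RUNX factors) or AGGAAGT (bound by ETS factors), read on either strand. JARID2 (chr6:15245819-15246118, plus strand) lies in an AluSc-centred region, TSPAN14 (chr10:80459035-80459334, plus strand) in a FLAM_C-centred one, SHISAL2A (chr1:52632918-52633217, plus strand) in a MIRb-centred one and THOC7-AS1 (chr3:63860395-63860694, plus strand) in a MIR-centred one.
JARID2: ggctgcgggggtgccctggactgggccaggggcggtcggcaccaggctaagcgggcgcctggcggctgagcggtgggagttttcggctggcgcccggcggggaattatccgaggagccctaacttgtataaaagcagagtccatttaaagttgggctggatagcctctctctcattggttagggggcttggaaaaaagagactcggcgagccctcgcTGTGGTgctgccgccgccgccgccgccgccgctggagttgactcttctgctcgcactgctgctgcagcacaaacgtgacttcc
TSPAN14: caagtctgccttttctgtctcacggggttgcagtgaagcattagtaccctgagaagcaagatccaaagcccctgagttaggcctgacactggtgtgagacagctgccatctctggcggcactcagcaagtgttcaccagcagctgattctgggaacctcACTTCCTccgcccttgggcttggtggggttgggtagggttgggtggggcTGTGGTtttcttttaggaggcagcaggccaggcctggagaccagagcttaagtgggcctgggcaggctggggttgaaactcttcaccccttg
SHISAL2A: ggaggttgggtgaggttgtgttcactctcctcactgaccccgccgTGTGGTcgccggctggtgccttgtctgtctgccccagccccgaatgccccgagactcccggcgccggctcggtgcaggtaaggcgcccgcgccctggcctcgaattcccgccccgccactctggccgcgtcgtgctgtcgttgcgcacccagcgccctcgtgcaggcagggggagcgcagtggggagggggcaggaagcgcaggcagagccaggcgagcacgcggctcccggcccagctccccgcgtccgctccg
THOC7-AS1: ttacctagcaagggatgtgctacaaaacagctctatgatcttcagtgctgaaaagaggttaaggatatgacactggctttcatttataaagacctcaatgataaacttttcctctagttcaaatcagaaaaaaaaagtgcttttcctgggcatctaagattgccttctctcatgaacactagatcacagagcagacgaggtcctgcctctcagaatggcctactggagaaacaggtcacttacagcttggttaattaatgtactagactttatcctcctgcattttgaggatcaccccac

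JARID2 encodes an accessory subunit of the H3K27 methyltransferase complex PRC2, and TSPAN14 a tetraspanin. The JARID2 window lay far from the Alu, 132151 bp from the region's centre to the window's midpoint, and the TSPAN14 and SHISAL2A windows lay 27870 and 4655 bp away. The THOC7-AS1 window was 511 bp from the centre and held none of the 4 motifs. Over all windows wholly inside dense SINE-centred regions, TGTGGT was found in 11.4% of 428 windows in Alu-centred sgSETD8 regions and 11.3% of 389 in sgNT, and in 11.7% of 77 and 6.41% of 78 windows in MIR-centred regions, against 13.1% of all 35116 windows. AGGAAGT was found in 13.3% (sgSETD8, interval 10.2 to 16.9) and 11.3% (sgNT, 8.34 to 14.9) of the Alu windows, against 8.24% of all windows. In the MIR windows its shares were 11.7% (sgSETD8, 5.49 to 21.0) and 16.7% (sgNT, 9.18 to 26.8). AGATAA, the letters of GATA factors, was found in 5.14% and 6.68% of Alu windows and 10.4% and 8.97% of MIR windows, against 10.3%. GTTCGAG, the letters of the B box of the RNA polymerase III promoter, was found in 0.935% and 1.03% of the Alu windows and in 0 of the MIR windows, against 1.03% of all windows. The letters of one motif can overlap those of another, since AGGAAGT ends with the base that opens TGTGGT, and a gene can have several windows. All windows include those outside any marked region, and windows inside dense regions without a SINE centre are not given here. Differences from the share of all windows therefore cannot be credited to the SINE centres.

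The first comparison set the share of marked regions centred on Alu or MIR in sgSETD8 against that in sgNT. Alu made up 5.54% of sparse sgSETD8 regions (403, interval 5.02 to 6.09) against 5.26% of sparse sgNT regions (273, 4.67 to 5.91). In the dense pair Alu made up 9.97% of sgSETD8 regions (1801, 9.54 to 10.4) against 10.2% of sgNT regions (1551, 9.76 to 10.7). The difference has opposite signs in the 2 pairs, and the intervals overlap within each pair. MIR made up 2.06% of sparse sgSETD8 regions (150) against 2.31% of sparse sgNT regions (120), and 3.61% (652) against 3.55% (538) in the dense pair. For all SINEs the difference, sgSETD8 minus sgNT, was -0.107 ± 0.105 percentage points (SD, n = 2 pairs), far smaller than the gap between the sparse and the dense tables. The SINE share averaged 10.7 ± 4.27% in sgSETD8 and 10.8 ± 4.38% in sgNT (SD, n = 2 tables each).

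**Figure D1:**
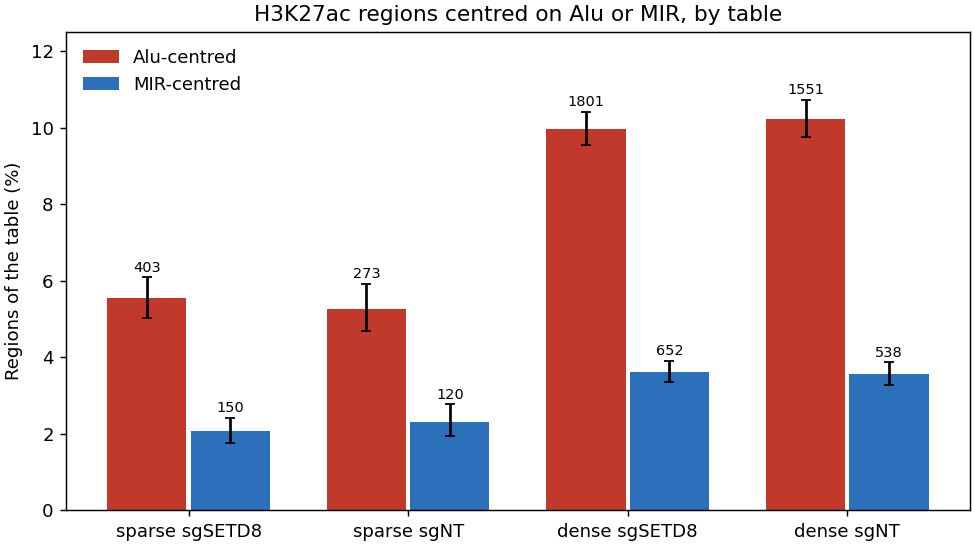
Share of each table's regions (vertical axis, percent) centred on an Alu (red) or a MIR (blue), with exact 95% intervals and the number of regions above each bar. The sgSETD8 and sgNT bars of a pair lie close together, and the dense tables hold higher shares of both families than the sparse tables.

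The number of SINE-centred regions was higher in sgSETD8 within both pairs, as was the number of all regions. The log2 ratio of counts, sgSETD8 over sgNT, was 0.56 (sparse) and 0.22 (dense) for Alu, and 0.32 and 0.28 for MIR, against 0.49 and 0.25 for all regions. The difference in the log2 ratio of Alu to MIR counts, sgSETD8 minus sgNT, was 0.09 ± 0.21 (SD, n = 2 pairs), 0.24 for the sparse pair and -0.06 for the dense one. Among single-peak regions, the SINE share was higher in sgSETD8 by 0.914 ± 0.345 points (SD, n = 2 pairs), and in the better-ranked part of each table it was lower by a difference of -1.34 ± 0.402 points, with the same sign in both pairs each time. In the sparse pair, 210 of the 556 sgSETD8 members (37.8%) had the table's shortest width of 274 bp, and 47 of 398 sgNT members (11.8%) the shortest width of 293 bp, against 29.7% and 10.9% of all regions of those tables.

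The 2 families were set side by side by region width. Alu made up 15.2% of sparse sgSETD8 regions of at least 5000 bp (interval 11.7 to 19.3), and 4.99% of those under 1000 bp (4.47 to 5.54). In sparse sgNT these shares were 19.4% (15.8 to 23.4) and 3.59% (3.04 to 4.197). In dense sgSETD8 they were 15.3% (14.5 to 16.3) and 5.93% (5.40 to 6.48), and in dense sgNT 16.4% (15.4 to 17.4) and 5.45% (4.90 to 6.03). The MIR shares at the 2 widths had overlapping intervals in every table. They were 2.17% and 2.01% in sparse sgSETD8, 3.16% and 2.22% in sparse sgNT, 3.33% and 3.55% in dense sgSETD8 and 3.54% and 3.34% in dense sgNT. The number of Alu per MIR was therefore 7, 6.14, 4.60 and 4.63 among long regions of the 4 tables in this order, against 2.48, 1.61, 1.67 and 1.63 among short ones. The Alu share was thus higher, and its interval lay above that of short regions, in each of the 4 tables.

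**Figure D2:**
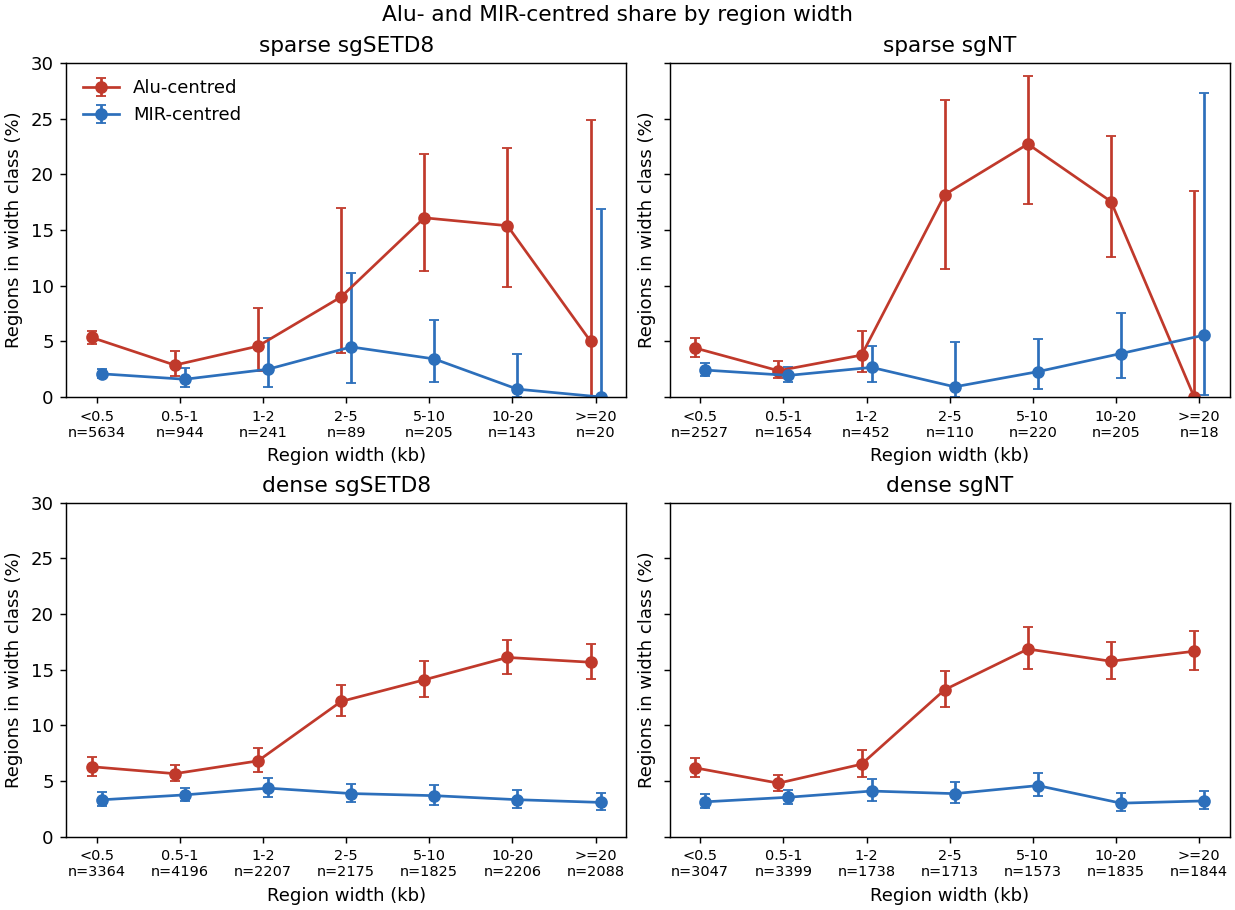
Share of regions centred on an Alu (red) or a MIR (blue) by region width in kb, in each table, with exact 95% intervals and the number of regions per width class. In the dense tables Alu lies between 4.80% and 6.80% below 2 kb and between 12.1% and 16.8% above, while MIR lies between 3.00% and 4.58% throughout. The widest class of the sparse tables holds only 20 sgSETD8 and 18 sgNT regions.

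The same held for the number of stitched peaks, which the width partly sets. In the dense tables Alu lay at the centre of 6.20% (sgSETD8) and 5.85% (sgNT) of single-peak regions, and of 16.1% and 16.3% of those with 2 peaks. MIR lay at the centre of 3.74% and 3.45% of single-peak regions and of 3.53% and 4.00% of those with 2. Only 37.0% (sgSETD8) and 33.1% (sgNT) of dense Alu-centred regions held a single peak, against 61.8% and 56.3% of MIR-centred ones. In the others the element can lie between peaks, and how often it did was not tested. Median widths of Alu-centred regions were 5575 bp in dense sgSETD8 and 6357 bp in dense sgNT, against 1441 and 1715 bp for MIR and 1499 and 1515 bp for all regions. In the sparse tables they were 325 bp (sgSETD8) and 735 bp (sgNT) for Alu and 303.5 and 492 bp for MIR. The log2 ratio of median widths, Alu over MIR, was 1.03 ± 1.31 in sgSETD8 and 1.23 ± 0.93 in sgNT (SD, n = 2 tables each), and among single-peak regions it was -0.017 and -0.094.

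Alu subfamilies did not share this pattern equally. AluS made up 52.6% of Alu-centred regions in dense sgSETD8 and 54.2% in dense sgNT, AluJ 37.0% and 34.4%, and AluY 7.55% and 8.70%. A single peak was held by 51.1% of AluJ-centred regions in dense sgSETD8 (interval 47.3 to 55.0) and 50.4% in dense sgNT (46.0 to 54.7). For AluS these shares were 26.6% (23.8 to 29.5) and 23.6% (20.7 to 26.6), and for AluY 30.9% (23.2 to 39.4) and 21.5% (14.9 to 29.4). AluJ therefore stood apart from AluS in both dense tables. The sparse tables had the same order, but with overlapping intervals. There AluJ stood at 88.5% (sgSETD8, 81.7 to 93.4) and 71.8% (sgNT, 61.0 to 81.0). AluS stood at 78.9% (73.2 to 83.8) and 53.6% (45.4 to 61.8). AluJ made up 51.1% and 52.4% of single-peak Alu-centred regions in dense sgSETD8 and sgNT, and 28.7% and 25.5% of those with 2 or more peaks. The MIR subfamilies MIR, MIRb, MIRc and MIR3 lay between 52.6% and 63.7% single-peak in the dense tables, and the rare MIR1_Amn at 90% of 10 regions in sgSETD8 and 66.7% of 9 in sgNT, with MIRb the most common at 37.9% of MIR in sgSETD8 and 41.6% in sgNT.

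**Figure D3:**
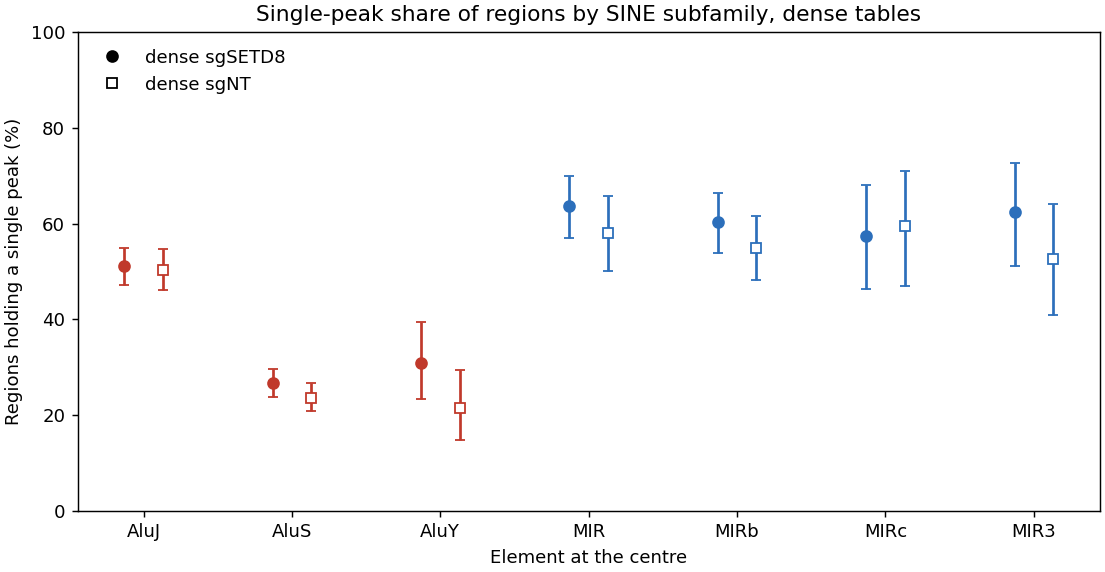
Share of regions that hold a single peak (vertical axis, percent, with exact 95% intervals) by the SINE subfamily at the centre, in dense sgSETD8 (filled circles) and dense sgNT (open squares). AluJ lies at 51.1% and 50.4%, AluS and AluY between 21.5% and 30.9%, and the 4 MIR subfamilies shown between 52.6% and 63.7%.

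Alu-centred regions had a higher median rank by the authors' signal than MIR-centred ones in 3 of the 4 tables, the exception being sparse sgSETD8, and a lower signal density. Among regions under 2000 bp the rank difference, Alu minus MIR, was reversed, at -5.004 points in sgSETD8 and -3.05 in sgNT (means of 2 tables each). The signal of a region is a density per bp multiplied by its length, so wide regions rank high. The median rank percentile of Alu-centred regions (higher means more signal) was 65.2 in dense sgSETD8 and 65.7 in dense sgNT, against 48.9 and 51.2 for MIR. In the sparse tables it was 45.1 (sgSETD8) and 72.6 (sgNT) for Alu and 46.3 and 47.1 for MIR. The median signal density of Alu-centred regions was 0.722 per bp in sparse sgSETD8, 1.23 in sparse sgNT, 0.518 in dense sgSETD8 and 0.660 in dense sgNT. MIR-centred regions had 0.855, 1.43, 0.602 and 0.752 in the same tables. Alu was the lower of the pair in all 4 tables. Below 1000 bp the gap was small in the dense tables, with 0.598 against 0.633 in sgSETD8 and 0.804 against 0.798 in sgNT.

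By gene position, SINE-centred regions were intronic or intergenic, because the annotation names a repeat only there. Of Alu-centred regions 78.0% (sgSETD8) and 80.4% (sgNT) were intronic in the dense tables, against 72.5% and 76.0% of MIR-centred ones and 72.0% and 72.6% of the other intronic and intergenic regions. In the sparse tables the shares were 60.8% (sgSETD8) and 63.0% (sgNT) for Alu, 56.0% and 67.5% for MIR, and 49.3% and 59.8% for the others. Alu exceeded MIR in 3 of the 4 tables, the exception being sparse sgNT, and the difference averaged 5.13 ± 0.475 points in sgSETD8 and -0.0594 ± 6.27 points in sgNT (SD, n = 2 tables each). In the better-ranked part of the tables it was -1.77 points in sgSETD8, negative in both tables. The median distance from the centre to the nearest transcription start was 16281 bp (sgSETD8) and 15114 bp (sgNT) for dense Alu-centred regions, 22975 and 16308.5 bp for MIR and 24505.5 and 21086 bp for the others. A RefSeq promoter window was touched by 14.7% (sgSETD8) and 15.8% (sgNT) of dense Alu-centred and 8.31% and 10.2% of MIR-centred regions outside chromosome 8. Of all dense regions outside chromosome 8, 11.0% and 11.3% touched one. In the sparse tables the shares were 0% for both families in sgSETD8, and 3.75% (Alu) and 3.45% (MIR) in sgNT. These shares take no account of the larger width of dense Alu-centred regions. Across chromosomes, the Alu share was highest on chromosome 19 in both dense tables, 17.9% in sgSETD8 and 16.3% in sgNT, and lowest on chromosome 13 in sgSETD8 (6.55%) and on 21 in sgNT (5.52%).

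The next comparison asked which SINE-centred regions had no overlapping region (1 bp or more) in the other table of the pair. Of all regions 34.0% had none in dense sgSETD8 and 22.7% in dense sgNT. For Alu the shares were 24.8% (interval 22.8 to 26.9) in sgSETD8 and 16.2% (14.4 to 18.2) in sgNT, and for MIR 33.6% (29.97 to 37.4) and 23.4% (19.9 to 27.2). Alu-centred regions were thus below all regions of their table and MIR-centred ones close to them. In the sparse pair, where 85.1% of all sgSETD8 and 79.1% of all sgNT regions had no counterpart, Alu stood at 81.4% and 74.4% and MIR at 78.7% and 86.7%.

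Width again went with this difference. Among dense regions under 1000 bp, 63.4% of Alu- and 63.4% of MIR-centred sgSETD8 regions had no counterpart, against 62.2% of all. In dense sgNT these shares were 43.0%, 40.5% and 43.4%. Among regions of at least 5000 bp they were 8.09%, 10.8% and 9.05% in sgSETD8 and 6.04%, 6.45% and 4.46% in sgNT. Weighted to the widths of MIR-centred regions, a setting chosen after seeing the data, the difference Alu minus MIR was 0.54 points in dense sgSETD8 and -0.286 points in dense sgNT, against -8.77 and -7.17 points without weights. In sparse sgSETD8 it was 2.45 points with weights and 2.72 without, and in sparse sgNT -6.76 and -12.3.

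**Figure D4:**
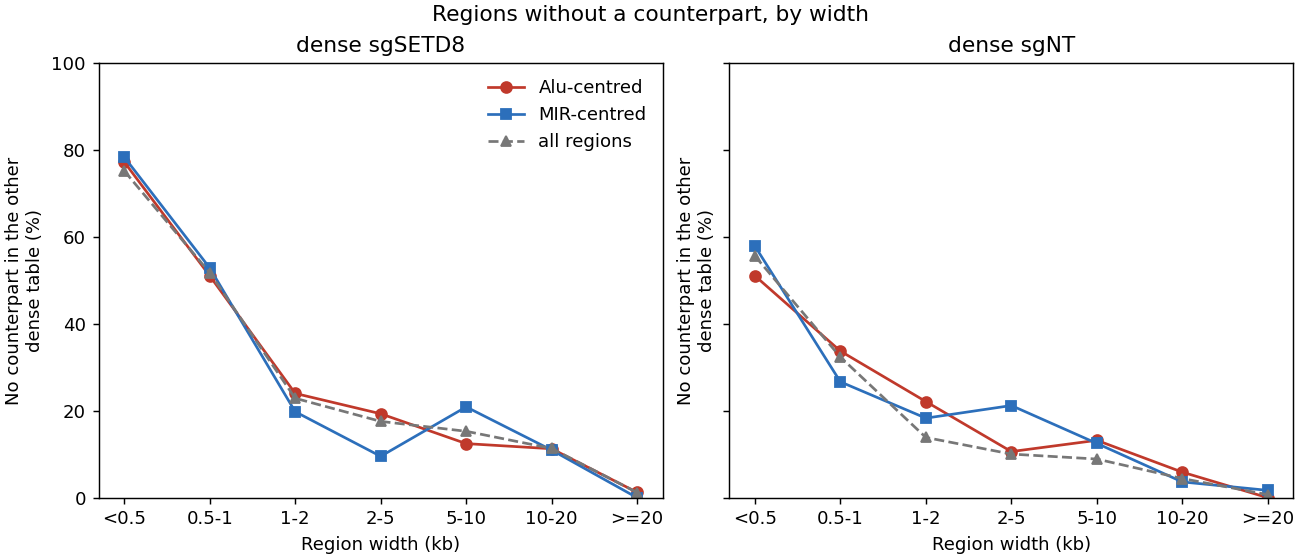
Share of dense regions with no overlapping region in the other dense table (vertical axis, percent) by region width in kb, for Alu-centred (red), MIR-centred (blue) and all regions (grey). Shares are highest in the narrowest class, at 77.3% for Alu and 78.4% for MIR in sgSETD8 and 51.1% and 57.9% in sgNT, and lowest above 20 kb, where none exceeds 1.69%.

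The best-ranked dense sgSETD8 regions of this kind centred on an Alu lay at TATDN1 (chr8:124513977-124536861, AluSx1, intron, rank 2012), SKP1, a subunit of SCF ubiquitin ligases (chr5:134175062-134187867, AluJb, intergenic, rank 2159), HDHD2 (rank 2266) and DNAJB12 (rank 2375). Those centred on a MIR lay at IGF2BP2-AS1 (rank 3748), NRBF2, an autophagy protein (chr10:63137216-63146241, MIR, intron, rank 3901), BTN3A1 (rank 4185) and ARHGAP24 (rank 4413). At SKP1, BTN3A1 and ARHGAP24 the sparse sgNT table did have an overlapping region. In dense sgNT the Alu-centred ones lay at C17orf113 (rank 3049), CAMKK2, a kinase upstream of AMPK (chr12:121278559-121290322, AluSz, intron, rank 3242), ZMIZ1-AS1 (rank 3505) and RPS10 (rank 3672), and the MIR-centred ones at SPDEF (chr6:34580738-34602846, MIRb, intron, rank 1977), MRAS (rank 4015), HEG1 (rank 4952) and INPP5B (rank 4992). Some of these had a region of the other dense table close by, at 455 bp (ZMIZ1-AS1), 1264 bp (RPS10), 1628 bp (IGF2BP2-AS1) and 2012 bp (HDHD2). For the other named ones it lay 5975 bp (DNAJB12) or more away. Regions of the dense sgSETD8 table that overlapped sparse sgSETD8 and neither sgNT table numbered 10 with a SINE centre, of 141 in all, and the reverse in dense sgNT 11 of 143. They made up 0.405% of SINE-centred against 0.781% of all dense sgSETD8 regions, and 0.524% against 0.944% in dense sgNT. By family the shares were 0.278% (sgSETD8) and 0.322% (sgNT) for Alu, and 0.767% and 1.12% for MIR. Alu thus lay below all regions in both tables. MIR lay close to them in sgSETD8 and above them in sgNT, on counts of 5 and 6 regions. The 10 were 5 Alu, among them MMP7, RETREG1 and WIPF3, and 5 MIR, among them NFATC2, a calcium-regulated transcription factor, and GNRH2. The 11 were 5 Alu, among them FNBP1, OASL and TET3 (another region than the matched one described further on), and 6 MIR, among them DOK4, PGF and LTBP2.

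Where a counterpart existed, its centre often lay on other DNA. In dense sgSETD8, 412 of 1354 Alu-centred regions with a counterpart (30.4%) met an Alu-centred sgNT region, and 69 of 433 MIR-centred ones (15.9%) a MIR-centred one. In dense sgNT these were 405 of 1299 (31.2%) and 70 of 412 (17.0%). Among all 11918 dense sgSETD8 regions with a counterpart, 1345 met an Alu-centred region and 389 a MIR-centred one. Among all 11707 such dense sgNT regions, 1382 and 416 did. Any region thus met an Alu more often than a MIR. The centre differed between groups by a median of 1937 bp for Alu and 951 bp for MIR in dense sgSETD8, and 1688 and 1108.5 bp in dense sgNT. Over all regions with a counterpart the medians were 1140 bp in dense sgSETD8 and 1049 bp in dense sgNT. Where the centres lay within 150 bp of each other, 82.2% of Alu-centred sgSETD8 regions and 74.5% of sgNT ones met an Alu, and 56.2% and 65.4% of MIR-centred ones met a MIR. In the sparse pair 22 of 75 Alu-centred sgSETD8 regions and 21 of 70 sgNT ones met an Alu, and 0 of 32 and 0 of 16 MIR-centred ones met a MIR. Among all 1083 sparse sgSETD8 regions with a counterpart, 71 met an Alu and 16 a MIR. Among all 1082 such sparse sgNT regions, 74 and 31 did. With so few meeting a MIR, the counts of 0 say little about MIR-centred regions.

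Single loci show the shift. Densities at single loci stand beside table medians over all regions of 0.810 in sparse sgSETD8 and 1.49 in sparse sgNT. The dense medians were 0.589 in sgSETD8 and 0.756 in sgNT. At UBASH3B, a gene of the phosphatase-like STS family, the sparse sgSETD8 region (chr11:122696516-122698600, density 4.96, rank 100) was centred on a MIRb and the sparse sgNT region (chr11:122696516-122698385, density 9.70, rank 95) on an AluSq2, with centres 108 bp apart. At KMT5A, the gene of SETD8, the dense sgSETD8 region (chr12:123391713-123404801, intron, density 0.475) was centred on an AluSx1, and the dense sgNT region, whose centre lay 226 bp away, on no SINE. At MYL12B, a myosin regulatory light chain gene, the dense sgSETD8 centre was an AluJr4 and the dense sgNT centre a MIR, 557 bp apart. The RUNX1 regions were centred on AluJr and AluSc in dense sgSETD8 and on MIR and MIRb in dense sgNT, mostly at different places. The AluSc region had no sgNT counterpart. The MIRb region, 1010 bp wide, overlapped the AluJr one, 12782 bp wide, with centres 6032 bp apart. The sgNT region with the largest overlap of the AluJr region was another one, with no SINE at its centre, 845 bp away. The MIR region overlapped neither Alu-centred region. Each sparse table had 1 MIRb-centred RUNX1 region, at different positions. Of 29 RUNX1 regions in dense sgSETD8 and 28 in dense sgNT, 2 each had a SINE centre. RUNX1T1 had 1 region in each dense table and 2 in sparse sgSETD8, none with a SINE centre.

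Recurrence was counted across tables, in which many regions of any kind have no counterpart. Joining overlapping regions gave 4559 loci with a SINE centre in at least 1 table, of which 3811 had one in 1 table, 682 in 2, 62 in 3 and 4 in all 4. The same element name, with centres within 300 bp, was found in 3 tables at 8 loci, all of them Alu, and at 0 loci in all 4. These were EEF2K, the kinase of elongation factor 2 (AluSg), ANAPC1P1, AP1B1, SNORD140, COMMD8, FAM217A, PMS2P3 and LOC101929279, named after their values were seen. At EEF2K the element was at the centre of the dense sgSETD8 (density 0.416), dense sgNT (0.462) and sparse sgNT (2.22) regions. FMN2, a formin gene, was Alu-centred in all 4 tables, on AluJo in both sparse tables (centres 27 bp apart; density 5.61 in sgSETD8 and 12.9 in sgNT) and in dense sgSETD8 (1.33), but on AluSx in dense sgNT (1.60). It was not among the 8 loci above, so its AluJo centres in 3 tables did not all lie within 300 bp. The dense AluJo may be another copy. TSPAN14 was centred on FLAM_C in both dense tables, with a density of 1.41 in sgSETD8 and 1.91 in sgNT at ranks 29 and 30.

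The best-ranked members show which genes these regions touch. In dense sgSETD8 they were the Alu-centred regions of JARID2 (chr6:15241651-15514587, 49 peaks, rank 2), ARHGEF3 (rank 20), TSPAN14 (rank 29) and SMYD3 (rank 38), and the MIR-centred ones of ZMIZ1, a transcriptional coactivator (chr10:79062722-79192350, rank 12), SHISAL2A (rank 123), SHB (rank 133) and RCSD1 (rank 152). In dense sgNT they were UBASH3B (chr11:122655229-122781127, AluSx1, rank 20), RPTOR, the mTORC1 scaffold (rank 23), TSPAN14 (rank 30) and CMIP (rank 61) for Alu. For MIR they were ZNF710-AS1 (rank 44), SUSD6 (rank 69), IRF2, an interferon regulatory factor (chr4:184409056-184479790, rank 112), and CUX1 (rank 113). Among single-peak regions, both sparse tables held DOT1L, the H3K79 methyltransferase, whose AluSx3-centred region had a density of 5.66 in sgSETD8 and 12.02 in sgNT. In the sparse tables the AluSc5 of ENSA, a phosphatase inhibitor, ranked 11 in sgSETD8 and 17 in sgNT. A single-peak AluY region at POPDC2 ranked 13 in sgNT with a density of 30.4, against 18.0 for its sgSETD8 counterpart, which was not SINE-centred. The intergenic MIR3-centred region assigned to PTGER4, a prostaglandin receptor gene, ranked 37 in sgNT (density 18.6), and its sgSETD8 counterpart was 13852 bp wide with a density of 2.38. KANSL1 had the most SINE-centred regions in dense sgSETD8, 12 of its 34 (9 Alu and 3 MIR), and 7 of 33 in dense sgNT (5 Alu and 2 MIR). MLLT10 had the most in dense sgNT, 11 of its 34, and 9 of 38 in dense sgSETD8. Every one of the MLLT10 centres was an Alu. The SINE share of all regions was 13.7% in dense sgSETD8 and 13.9% in dense sgNT.

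Signal density was compared at dense regions that cover each other by at least 90%, 1769 in all, of which 248 were Alu- and 63 MIR-centred in sgSETD8. Sparse tables had 44 such regions, 6 Alu and 1 MIR, too few to use. The log2 ratio sgSETD8 over sgNT, after subtracting the median of -0.26 over all matched regions, had a median of -0.0045 (SD 0.22 over 248 regions) for Alu and -0.0068 (SD 0.27 over 63) for MIR. Past 1.5-fold, 1 Alu-centred region was higher in sgSETD8 and 2 lower, and 1 MIR-centred region each way, against 1.41% higher and 1.02% lower of all 1769. The Alu-centred region with the lowest ratio among better-ranked regions lay in an intron of TET3, which encodes a 5-methylcytosine dioxygenase, with a density of 1.12 in sgSETD8 and 2.45 in sgNT, centred ratio -0.86. ABL1, a tyrosine kinase gene, stood at -0.59 with 0.361 in sgSETD8 and 0.650 in sgNT. The highest Alu-centred one in the better-ranked part was COMMD8 at 0.51, with 0.898 in sgSETD8 and 0.757 in sgNT. Among MIR-centred ones TRAK1, an adaptor of mitochondrial transport, stood at 0.50 (1.40 and 1.19) and INVS at -0.59 (0.419 and 0.756). No library replicates these ratios.

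**Figure D5:**
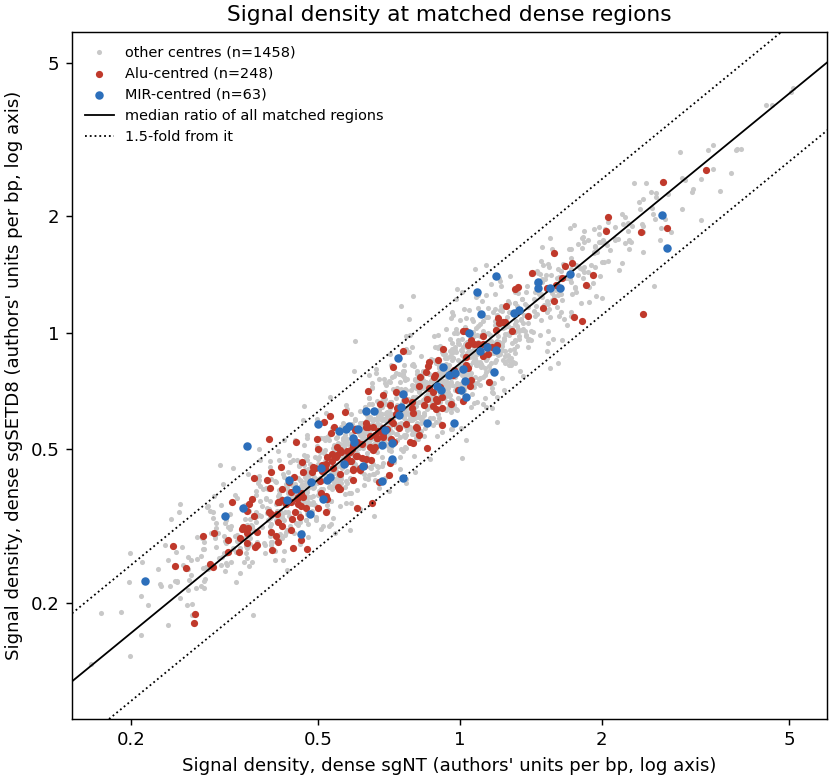
Signal density in dense sgSETD8 (vertical axis) and dense sgNT (horizontal axis) at 1769 regions that cover each other by 90%, on log axes in the authors' units per bp. The Alu-centred (red, n = 248) and MIR-centred (blue, n = 63) regions lie along the median ratio of all matched regions (solid line), and most fall within 1.5-fold of it (dotted lines).

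Gene lists were counted by assigned gene, so these are shares of listed genes' regions and not of elements. Of the t(8;21) and stem or progenitor regulators, 8 of 115 dense sgSETD8 regions (6.96%) and 10 of 129 sgNT regions (7.75%) had a SINE centre, against 13.7% and 13.9% of all regions. In the sparse pair they were 5 of 37 (13.5%, sgSETD8) and 6 of 59 (10.2%, sgNT), against 7.64% and 7.67% of all regions, so the sparse and dense pairs lay on opposite sides of their tables' shares. For mitochondrial homeostasis genes they were 5 of 33 (sgSETD8) and 2 of 23 (sgNT) in the dense pair. The region of the protease gene LONP1 was centred on a FLAM_C in sgSETD8, and its sgNT counterpart, with a centre 134 bp away, on no SINE. The fission GTPase gene DNM1L had an AluJb-centred region in both tables, at different positions. Genes of SINE transcription, RNA and silencing had 4 of 39 (sgSETD8) and 4 of 36 (sgNT), all Alu-centred in the dense pair. Among them were ADAR, the enzyme that edits Alu RNA (chr1:154603225-154622677, AluSc8), GTF3C6, HMGB1 and KMT5A in sgSETD8, and EHMT1 with 2 regions and SSB in sgNT. Of these regions only those of HMGB1 and SSB had no counterpart in the other dense table. Housekeeping genes had 3 of 13 and 1 of 12. GFI1, a repressor of myeloid differentiation genes, was assigned an AluJr-centred region in both dense tables, with centres 16 bp apart, with a density of 0.946 in sgSETD8 and 0.911 in sgNT.

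MicroRNA hairpins inside dense SINE-centred regions numbered 15 in sgSETD8 and 18 in sgNT, and sparse ones held 0. SINE-centred regions covered 27.8 of 152.8 Mb in dense sgSETD8 and 24.7 of 132.8 Mb in dense sgNT. In the sparse tables they covered only 0.827 Mb (sgSETD8) and 1.25 Mb (sgNT). The number of hairpins in all regions is not given here, so no hairpin count in this paragraph can be set against a share. One region can hold several hairpins, as the dense sgNT region of MIR342 and MIR151B does. The count in SINE-centred regions of both dense tables was 1, although several of the others lay in regions of both tables whose centre was a SINE in one table alone. The nearest hairpin lay 1080 bp from its region's centre. Mature sequences from RefSeq GRCh38.p14 follow, with the seed (bases 2 to 8) in capitals, for the named hairpins inside such regions.
hsa-miR-223-3p: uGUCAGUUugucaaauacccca
hsa-miR-21-5p: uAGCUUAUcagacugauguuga
hsa-miR-342-3p: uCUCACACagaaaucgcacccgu
hsa-let-7i-5p: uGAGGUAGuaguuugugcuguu
hsa-miR-193a-3p: aACUGGCCuacaaagucccagu
These 5 seeds are all different. The densities below stand beside medians over all dense regions of 0.589 in sgSETD8 and 0.756 in sgNT. MIR223, a myeloid microRNA gene, lay in a dense sgSETD8 region (chrX:65985543-66031347, 10 peaks, rank 374, density 0.803) centred on a MIR element, while the sgNT region there (rank 358, density 1.01) had no SINE at its centre. MIR21 lay in an AluSx1-centred sgSETD8 region (density 0.386, rank 1127), against 0.835 at rank 1151 in the sgNT region, which was 23679 bp wide where sgSETD8 had 44379 bp. MIRLET7I lay in a region centred on an L2c element in sgSETD8 (density 0.435) and on an AluSz in sgNT (0.765). MIR342 lay in a MIRc-centred sgNT region (0.514), against 0.388 in the sgSETD8 region, and MIR193A in a MIR-centred sgNT region (density 0.378, rank 2249), where dense sgSETD8 had none.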

How the data were processed

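H3K27ac CUT&Tag was done by the authors on 4 samples. The submitters' processing notes name cutadapt, Bowtie2 and hg38, without versions. How peaks were called, stitched and annotated is not given in the sources used here. For each region the authors deposited a signal, which divided by region length gave a number with 4 decimals, called density here, and its scaling is not stated. The tables hold no read counts, so depth is unknown. Tables were grouped by the guide in their region identifiers. 0 value columns were left without a group.

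Regions on the 22 autosomes, X and Y were used. Overlap meant 1 bp or more. Families come from the deposited annotation, whose class field was split on its separators. Regions in the 4 tables were set against each other in pairs with a like number of regions. Scripts were tested on simulated tables. The members and lists were chosen with earlier results of these data known. The rule for named genes took, for each family, the 4 best-ranked regions per table, the 4 best-ranked without a counterpart, the 3 highest and 3 lowest density ratios in the better-ranked part, up to 5 recurrent loci and up to 4 members per list, with KMT5A, RUNX1 and RUNX1T1 always, passing over LOC, LINC and MIR names. Only some of them are described. Single-peak regions, microRNA genes, genes with most regions, regions of 1 group in both pairs and loci with 1 element in 3 tables were named after their values were seen. Sequence windows at region centres were not used here, so motifs were searched in RefSeq promoter windows. Software was matplotlib 3.10.9, scipy 1.17.1, pandas 2.3.3, numpy 2.4.6 and Python 3.11.15.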

Additional observations from a re-analysis of the deposited data

How the results depend on the processing

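Each result was recomputed under other settings, of which 3 kinds were chosen after seeing the data (intronic and intergenic regions only, widths weighted to MIR, regions that overlap the other pair). Using all sequences changed nothing by construction, since no region lay elsewhere. The cause was not tested. The SINE share difference, -0.107 points (sgSETD8 minus sgNT), was -1.34 in the better-ranked part, -0.620 in the best-ranked 5000 and -0.332 at 500 bp or more, and reversed to 0.914 for single peaks, 0.901 under 2000 bp and 0.791 for regions that overlap the other pair. The Alu-to-MIR difference, 0.09, reversed to -0.15 in the better-ranked part and was 0.32 for single peaks and 0.32 under 2000 bp. Alu minus MIR in the no-counterpart share of sgNT, -9.74 points, was -2.97 with a 50% cover, -6.10 in the best-ranked 5000, -2.25 for single peaks, -1.42 under 2000 bp and -3.52 weighted by width. The width ratio in sgNT, 1.23, reversed to -0.094 for single peaks. The rank difference, 7.51 points in sgSETD8, reversed to -5.004 under 2000 bp, and in sgNT, 20.01, it was 11.1 at 500 bp or more and reversed to -3.52 for single peaks and -3.05 under 2000 bp. The intronic difference in sgSETD8, 5.13 points, was 2.81 in the best-ranked 5000, 3.61 at 500 bp or more, 8.21 for single peaks, 8.52 under 2000 bp and 1.60 for regions that overlap the other pair, and reversed to -1.77 in the better-ranked part. Leaving out a pair cannot move a mean of 2 values by more than their SD and so is no check of stability. It gave -0.181 to -0.0329 for the SINE share, -0.06 to 0.24 for Alu to MIR, -8.77 to 2.72 and -12.3 to -7.17 for no counterpart in sgSETD8 and sgNT, 0.10 to 1.95 and 0.58 to 1.89 for width, -1.23 to 16.2 and 14.6 to 25.5 for rank, and 4.79 to 5.47 and -4.50 to 4.38 for the intronic share. The no-counterpart difference in sgSETD8, -3.02 points, was positive under several settings, up to 3.67, within its SD of 8.13. No paired analysis was possible because the tables were not tied to single samples, so the labels' replicate numbers could not be placed. The sparse and dense pairs used above join tables with a like number of regions and are not pairs of samples. Depth is unknown, and sparse tables carry few regions over 5000 bp.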
